A study of Mus musculus with 6 samples.

Results

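Runx1 peak lists from lung fibroblasts of bleomycin-injured mice at day 56 (D56) and of sham-injured mice were compared interval by interval on chromosomes 1 to 19. The comparison used 4 of the 6 libraries of the series, a Runx1 ChIP-seq library and its input from each condition. Its members were 14704 D56 peaks and 24611 sham peaks, and each peak was assigned to every protein-coding gene whose body, extended by 10 kb on both sides, it met. The remaining pair of libraries, from day 14 after bleomycin (D14, 55378 peaks), served only to show whether a peak was also called there.

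All fibroblasts came from lungs of Col1a2-CreERT2;mTmG mice, and the sample titles mark the cells as GFP. In this genotype a tamoxifen-inducible Cre driven by regulatory sequence of the collagen gene Col1a2 switches a membrane reporter from red to green, so cells with an active Col1a2 driver at the time of induction are marked, and other lung fibroblasts need not be. The D56 group received bleomycin injury, a chemical lung injury that brings on fibrosis, and the sham group a sham injury. Genotype, tissue, cell type and antibody were shared by both groups, and the sources used here do not give the age, sex or number of mice behind a library. Cells were isolated from the lungs before they were fixed. There was 1 ChIP library per condition, so no replicate spread exists, no test between conditions was possible, and no p-value is given. Intervals after a share are 95% intervals by Wilson's method, which take in counting error alone. In such bulk libraries, fewer cells with a bound site and less binding per cell cannot be told apart.

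Runx1 is a DNA-binding subunit of the core-binding factors. It pairs with Cbfb, binds a short core sequence through its Runt domain, and can activate or repress nearby genes together with partners such as AP-1, SMAD proteins and the TLE corepressors. It is best known from blood development, where it is needed for the first blood stem cells, and in fibroblasts it has been linked to myofibroblast activation.

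The D56 ChIP library held 49669125 tags and its input 19949187, against 48816721 and 39609538 for sham. Per the file headers the larger of ChIP and input was scaled to the smaller, so the D56 signal was brought down to 40.2% and the sham signal to 81.1% of the ChIP depth. A peak's pileup, the number of scaled fragments over its summit, therefore ran from 10 to 361 with a median of 23 at D56 and from 14 to 950 with a median of 36 in sham. These pileups and the fold enrichments over local background are the authors' own values, each list on its own scale. They are used below to rank peaks within a list and not to compare a peak's height between lists. The sham list was 1.67 times as long as the D56 list. For that reason it was also limited to its 14704 highest pileups, which removed all peaks under a pileup of 31. The part of the smaller D56 input in the shorter D56 list was not tested.

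Most of the D56 list lay inside the sham list. When both lists were joined, 13628 of 25081 regions (54.3%) held peaks of both libraries, 525 (2.09%) held D56 peaks alone and 10928 (43.6%) held sham peaks alone. The promoters of 5 genes show what such peaks look like in sequence. Ctsz, which encodes the lysosomal peptidase cathepsin Z, and Ankle1, which encodes a DNA-cleaving enzyme, carried the 2 strongest D56 peaks without a sham overlap. Sphk1, which encodes sphingosine kinase, and Rpf2, which encodes a ribosome assembly factor, carried sham peaks at the start site without a D56 overlap. Hjurp, which encodes the chaperone that loads the centromeric histone, carried one of the strongest peaks of both lists. Each window below runs from 250 bases before to 50 bases after an annotated start site (RefSeq, GRCm38.p6), 5′ to 3′ on the gene's strand. Capitals mark the RUNX cores TGTGGT and TGCGGT, the GC box GGGCGG and the ETS-type site CCGGAAG, on either strand. The windows are chr2:174438990-174439289 on the minus strand for Ctsz, chr8:71405762-71406061 on the plus strand for Ankle1, chr11:116531661-116531960 on the plus strand for Sphk1, chr10:40246930-40247229 on the minus strand for Rpf2 and chr1:88277530-88277829 on the minus strand for Hjurp.
Ctsz: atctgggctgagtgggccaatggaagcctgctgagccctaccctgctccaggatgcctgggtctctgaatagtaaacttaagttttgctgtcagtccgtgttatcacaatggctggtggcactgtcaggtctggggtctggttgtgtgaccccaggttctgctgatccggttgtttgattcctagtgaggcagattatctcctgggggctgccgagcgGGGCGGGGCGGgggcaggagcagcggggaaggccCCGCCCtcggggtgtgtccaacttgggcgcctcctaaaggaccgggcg
Ankle1: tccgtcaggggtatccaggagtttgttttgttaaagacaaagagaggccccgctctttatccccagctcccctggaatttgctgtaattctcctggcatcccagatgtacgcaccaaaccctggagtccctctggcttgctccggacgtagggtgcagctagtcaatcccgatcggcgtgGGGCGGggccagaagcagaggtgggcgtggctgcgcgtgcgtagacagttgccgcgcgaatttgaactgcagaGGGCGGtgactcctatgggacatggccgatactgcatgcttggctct
Sphk1: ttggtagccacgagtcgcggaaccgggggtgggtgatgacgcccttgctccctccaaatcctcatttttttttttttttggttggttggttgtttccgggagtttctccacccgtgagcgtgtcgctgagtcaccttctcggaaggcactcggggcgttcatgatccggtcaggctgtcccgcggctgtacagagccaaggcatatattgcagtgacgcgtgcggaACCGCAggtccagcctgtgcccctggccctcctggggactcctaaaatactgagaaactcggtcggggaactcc
Rpf2: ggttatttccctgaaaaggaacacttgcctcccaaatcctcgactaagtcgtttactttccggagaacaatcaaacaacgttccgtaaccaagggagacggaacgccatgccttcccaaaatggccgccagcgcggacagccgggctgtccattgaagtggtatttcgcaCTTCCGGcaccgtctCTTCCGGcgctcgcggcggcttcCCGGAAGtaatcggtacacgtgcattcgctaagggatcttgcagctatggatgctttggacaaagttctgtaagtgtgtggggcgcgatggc
Hjurp: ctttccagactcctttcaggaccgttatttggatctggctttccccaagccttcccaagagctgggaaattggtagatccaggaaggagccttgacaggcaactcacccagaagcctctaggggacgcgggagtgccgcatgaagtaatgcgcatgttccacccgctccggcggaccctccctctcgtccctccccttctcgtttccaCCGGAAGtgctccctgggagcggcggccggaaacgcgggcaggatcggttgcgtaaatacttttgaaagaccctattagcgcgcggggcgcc

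Of these 5 windows, only that of Sphk1 held a RUNX core, 1 copy read on the opposite strand. The Ctsz window held 3 GC boxes, 2 of which overlap each other, and the Ankle1 window 2, while the Rpf2 window held 3 ETS-type sites and the Hjurp window 1. Such matches describe letters in the window and show no binding site.

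Over all 20084 promoter windows in the table, 21.5% held a RUNX core (TGTGGT or TGCGGT on either strand). The share was 26.4% (19.03–35.3%) of the 110 windows met by a D56 peak without a sham overlap, and 20.3% of the 7719 windows met by any D56 peak. It was 17.9% (14.5–21.9%) of the 413 windows met by an equal-length sham peak without a D56 overlap. The interval of the D56 share holds the share of all promoters, so a difference was not detectable at these counts. GC boxes set promoter peaks apart more than RUNX cores did. GGGCGG on either strand was in 75.2% of windows met by a D56 peak, 68.2% of those met by a D56 peak without a sham overlap, 56.4% of those met by an equal-length sham peak without a D56 overlap, and 47.0% of all windows. The ETS-type site CCGGAAG was in 15.5% of the windows with a D56 peak and no sham overlap, and in 20.6% of those with an equal-length sham peak and no D56 overlap. It was in 22.6% of windows met by any D56 peak, 22.7% of those met by any equal-length sham peak, and 11.9% of all windows. The AP-1 site TGACTCA was rare, at 1.82% of the D56 windows without a sham overlap and 5.81% of the equal-length sham windows without a D56 overlap, beside 4.70% of all windows. Chromosome 18 is not in the promoter table and was not analysed here for motifs.

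Peaks present at D56 and not called in sham were few and weak. Of the 14704 D56 peaks, 525 (3.57%, 3.28–3.88%) overlapped no sham peak, and of the 24611 sham peaks, 10928 (44.4%, 43.8–45.0%) overlapped no D56 peak. Against the sham list of equal length, 2096 D56 peaks (14.3%, 13.7–14.8%) had no overlap, and 2624 sham peaks (17.8%, 17.2–18.5%) had none at D56. With list length made equal, both shares were thus of the same order, with that of sham somewhat higher. Among the 5000 highest pileups of each list, 1 D56 peak (0.0200%), that of Ctsz, overlapped no peak of the full sham list, and 32 sham peaks (0.640%) overlapped no peak of the full D56 list. The full sham list is the longer, so more D56 peaks could find a match there. With the 5000 strongest of each list set against each other, 899 D56 and 954 sham peaks had no overlap.

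Unmatched peaks were mostly weak ones. With each list split by pileup into 10 groups of equal size, group 1 being the strongest, no peak in groups 1 and 2 of the D56 list lacked a sham overlap (Wilson interval up to 0.261% in each), and in its weakest group 15.8% lacked one in the full sham list and 55.9% in the equal-length one. In the equal-length sham list the share without a D56 overlap ran from 0.0680% in the strongest group to 56.2% in the weakest. The lists of equal length drew apart in the middle, where 5.85% of D56 group 6 was unmatched and 12.4% of sham group 6. The plot of unmatched peaks by strength shows this.

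**Figure D1:**
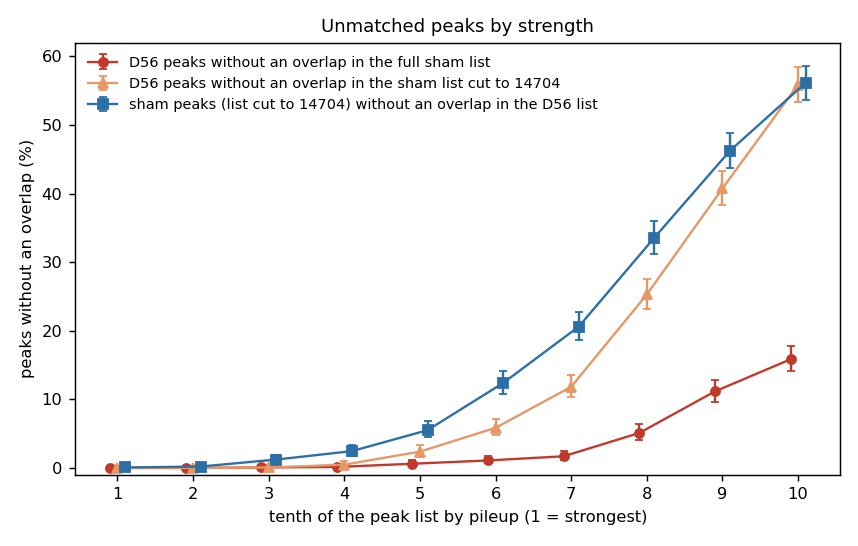
Share of peaks without an overlap in the other library (y axis, %) by group of the list ranked by pileup (x axis, 10 groups of equal size, 1 is the strongest), with 95% Wilson intervals as bars; red circles are D56 peaks against the full sham list, orange triangles D56 peaks against the sham list of equal length, and blue squares sham peaks of the equal-length list against D56. In group 7 the shares were 1.70%, 11.8% and 20.6% in that order.

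Most peaks that differed were also called at D14, fewest so among the unmatched peaks of the full sham list. Of the 525 D56 peaks without a sham overlap, 503 (95.8%) overlapped a D14 peak, and of the 14179 D56 peaks with one, 99.5% did. For the equal-length sham list these shares were 95.2% of the 2624 peaks without a D56 overlap and 99.8% of the 12080 with one. Of the 10928 unmatched peaks of the full sham list, which includes its weaker peaks, 8924 (81.7%) overlapped a D14 peak and 2004 (18.3%) did not.

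The 15 strongest D56 peaks without a sham overlap, among those within 100 kb of a named gene, had pileups of 22 to 34 and folds of 4.72 to 11.6. All were called at D14, and 11 were no farther than 1 kb from the end of a gene. The Ctsz peak stood at rank 3274 of the D56 list with a pileup of 34 and a fold of 11.6, 23 bases from a start site, and the nearest sham peak was 22841 bases away. The Ankle1 peak had a pileup of 27 and a fold of 8.33. At genes for mitochondrial complex I, Ndufaf5, an assembly factor, had a pileup of 24 and a fold of 9.65, and Ndufab1, a subunit that also serves as acyl carrier protein, a pileup of 24 and a fold of 6.48. The other peaks lay at Rpn1 (a subunit of the oligosaccharyltransferase), Vmn2r29 (a vomeronasal receptor), Zfp91 (a zinc finger ubiquitin ligase), Jmjd7 (a JmjC-domain hydroxylase), Dact3 (an inhibitor of WNT signalling), Maats1 (a protein of cilia), Txndc17 (a thioredoxin-like protein), Bpnt1 (a nucleotidase), Armc2 (a protein of sperm flagella) and Cenpw (a centromere protein). The last lay nearest to Cdh5, the endothelial VE-cadherin gene, but 72810 bases from it. For several the sham list held a close neighbour, 298 bases from the Dact3 peak and 542 bases from the Zfp91 peak. Over all 525, a sham peak lay within 1 kb of 19.6%, and over the 2624 equal-length sham peaks without a D56 overlap, a D56 peak lay within 1 kb of 15.4%.

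The 15 strongest sham peaks without a D56 overlap, again within 100 kb of a named gene, stood at ranks 1164 to 4194 of their list. The 15 D56 peaks stood at 3274 to 7768 of theirs, but had to miss a longer list, so part of this contrast was built in. Pileups of the 15 sham peaks were 68 to 100, all were called at D14, and 3 of the 15 lay within 1 kb of a gene end. Passed over were peaks with pileups of 87 and 72, which lay 237976 bases from Spry1 and 205049 bases from Qk, their nearest named genes. A peak 962 bases past an end of Fos, the AP-1 subunit gene, was 3626 bases long with a pileup of 85 and a fold of 7.84. One inside Nr4a2, an orphan nuclear receptor gene, had a pileup of 80 and a fold of 10.17. Gadd45b, a stress-response gene, had one of 3226 bases with a pileup of 73, Fosl2, another AP-1 subunit gene, one of 69 at 34389 bases, and Btg2, an antiproliferative gene, one of 2347 bases with a pileup of 69. Hoxb3, a homeobox gene, had one of 1419 bases with a pileup of 73. Others lay at Spidr (a DNA repair scaffold), Sphk1, Zfp281 (a zinc finger repressor, 55032 bases away), Actg1 (cytoplasmic actin), Arf3 (a Golgi GTPase), Alpl (tissue-nonspecific alkaline phosphatase), Gng7 (a G-protein subunit) and Rpf2. For some of these a D56 peak lay close by, 461 bases from the Nr4a2 peak, 666 from that at Alpl, 908 from that at Gadd45b and 984 from that nearest Zfp281. The strongest of all, inside the centrosome gene Sfi1, had a pileup of 100 and a fold of only 2.03, the lowest of the 15.

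The remainder of the 32 strongest sham peaks that met no D56 peak, named here after their values were seen, included sites at Nr4a1, Dusp1, Smad3, Col5a1, Pcolce, Rora, Fndc3b, Gna13 and Ankrd12. That at Nr4a1, another orphan nuclear receptor gene, was 3555 bases long, and that at Dusp1, a MAP kinase phosphatase gene, 2466 bases. A peak of 2479 bases lay 660 bases from the long noncoding RNA gene Malat1. Col5a1 encodes a chain of fibrillar collagen and Pcolce an enhancer of procollagen processing, and their peaks had pileups of 63 each. All 32 were called at D14.

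At the other extreme, many of the strongest shared peaks were the same places in both lists. Shared peaks with no named gene within 100 kb were passed over here. The 5 strongest of the other shared D56 peaks stood at ranks 2, 3, 5, 6 and 7 of the list. In that order they lay at Lars2 (mitochondrial leucyl-tRNA synthetase), Hjurp, Filip1l (a filamin-interacting protein), Zc3h7a (an RNA-binding zinc finger protein) and Axin2 (a WNT feedback inhibitor, 61219 bases away). Of these genes, Lars2, Filip1l, Hjurp and Zc3h7a also carried peaks among the 5 strongest shared sham peaks picked by the same rule. Folds were 2.93 to 9.78 over the 5 D56 peaks and 4.59 to 6.90 over these 4 sham peaks, so some tall peaks stood on a tall background.

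Unmatched peaks of the 2 lists differed in where they lay. At a gene end, meaning no more than 1 kb from either annotated end, were 32.2% of D56 peaks without a sham overlap (28.3–36.3%) and 54.7% of those with one (53.8–55.5%). With the sham list limited to equal length these shares were 31.7% (29.8–33.8%) and 57.5% (56.7–58.4%). Of equal-length sham peaks, 23.2% (21.7–24.9%) of those without a D56 overlap and 57.5% (56.7–58.4%) of those with one lay at a gene end. Since weak peaks lie farther from genes in both lists, the shares were also taken within 5 groups of equal size by pileup. In the weakest D56 group, 29.8% of unmatched peaks and 30.3% of matched ones lay at a gene end, in group 4 32.1% and 38.2%, and in group 3 49.6% and 52.3%. In the weakest sham group the shares were 22.8% and 39.2%, in group 4 24.6% and 43.3%, and in group 3 22.1% and 52.5%. At like strength, then, D56 peaks without a sham partner were close to those with one in groups 3 and 5 and lower in group 4, and sham peaks without a D56 partner were lower in all 5 groups. This can be seen in the plot of gene-end shares by strength.

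**Figure D2:**
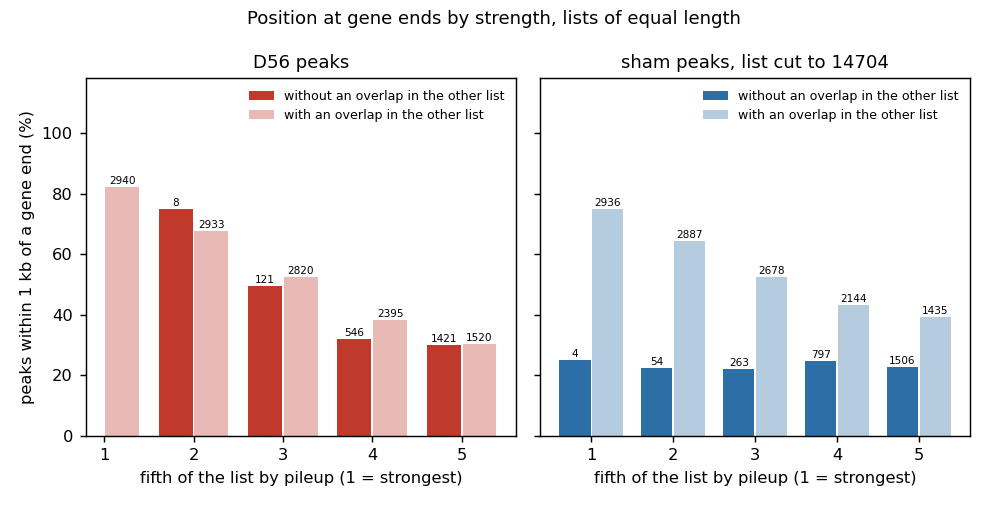
Share of peaks within 1 kb of an annotated gene end (y axis, %) by group of the list ranked by pileup (x axis, 5 groups of equal size, 1 is the strongest), for D56 peaks (left, red) and sham peaks (right, blue) in lists of 14704 each; dark bars are peaks without an overlap in the other list, pale bars peaks with one, and numbers above the bars count peaks. Dark and pale bars are near level in the weakest D56 group (29.8% and 30.3%) and stand apart in all 5 sham groups, such as 22.8% and 39.2% in the weakest.

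Peaks of the sham list were also wider. The median length was 307 bases at D56, against 360 in the whole sham list and 480 in its equal-length form. Peaks over 2 kb numbered 4 at D56 and 67 in sham. The median was 182 bases for D56 peaks without a sham overlap, and 354 for equal-length sham peaks without a D56 overlap. Width moves with depth and with the fragment length, which the headers give as 150 bases for D56 and 166 for sham, and its part in these differences was not tested.

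Across genes, 11475 of 20661 protein-coding genes (55.5%) had a D56 peak and 12865 (62.3%) a sham peak. A D56 peak without any sham peak was found at 102 genes (0.494%), and a sham peak without any D56 peak at 1492 genes (7.22%). With lists of equal length 622 genes (3.01%) had a D56 peak alone and 495 (2.40%) a sham peak alone, beside 10853 with both. Only the sham list was cut for this. All but 102 of the 622 had a sham peak under the cut, while the 495 had no D56 peak at all. Among the 5000 strongest peaks of each list, 6435 genes (31.1%) had a D56 peak and 6226 (30.1%) a sham peak, 901 (4.36%) the D56 peak alone and 692 (3.35%) the sham peak alone. At equal numbers of peaks, those of D56 were thus spread over slightly more genes, and those of sham were packed more densely at fewer. In the full lists more genes had a sham peak. All 102 genes and all 622 had a D14 peak. So did all 11475 genes with a D56 peak and all 495 with a sham peak alone at equal length, so this does not set them apart.

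The packing was plain at single genes. At equal length, 111 genes had 3 or more sham peaks without a D56 overlap and 15 had 5 or more, while 34 genes had 3 or more D56 peaks without an overlap in the equal-length sham list and 1, Zfp423, had 5. Against the full sham list no gene had 3 unmatched D56 peaks and 22 had 2. Rad51b, a gene for homologous recombination spread over 550979 bases, had 10 D56 peaks and 21 equal-length sham peaks, 12 of them without a D56 overlap. Hoxa3 had 6 and 17, with 11 unmatched sham peaks, and Hoxb3 had 3 and 12, with 9. Rora, the gene of a clock and lipid-metabolism nuclear receptor, had 1 D56 peak and 10 sham peaks, of which 9 were unmatched. Zfp469, a zinc finger gene linked to corneal collagen, had 4 and 11, with 7 unmatched. Btg2, which spans only 4291 bases, had 1 D56 peak and 8 sham peaks, 7 unmatched. Named after their counts were seen, Smg6 (6 and 12), Tns1 (9 and 13), Atf3 (2 and 7), Arid5b (4 and 8), Bicc1 (4 and 9) and Fndc3b (4 and 9) also had between 5 and 7 sham peaks each without a D56 overlap. None of this group lacked a peak at D56.

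At equal length 2074 genes had more peaks at D56 than in sham and 1924 had fewer, but at a difference of 3 or more peaks the numbers were 36 with more and 86 with fewer. Iqcn led, with 14 D56 peaks and 7 equal-length sham peaks, but its window is shared with Jund and Pde4c, so these are partly the same peaks. Zfp423, a zinc finger gene of mesenchymal and fat cell precursors, had 6 D56 peaks, 5 of them without an equal-length sham overlap, and 1 sham peak of the equal-length list, with 11 in the full list. Kdm6b, which encodes a histone H3K27 demethylase, had 8 and 3. Yet the 8 D56 peaks at Kdm6b covered 3651 bases and all overlapped sham peaks, and the 3 sham peaks covered 6793 bases, the longest of them 3687. Bace2, a protease gene, had 3 and 0, with 2 in the full sham list. The map of called peaks shows the Kdm6b case beside Fos, Btg2, Nr4a1 and Hoxb3, which had sham peaks without a D56 overlap.

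**Figure D3:**
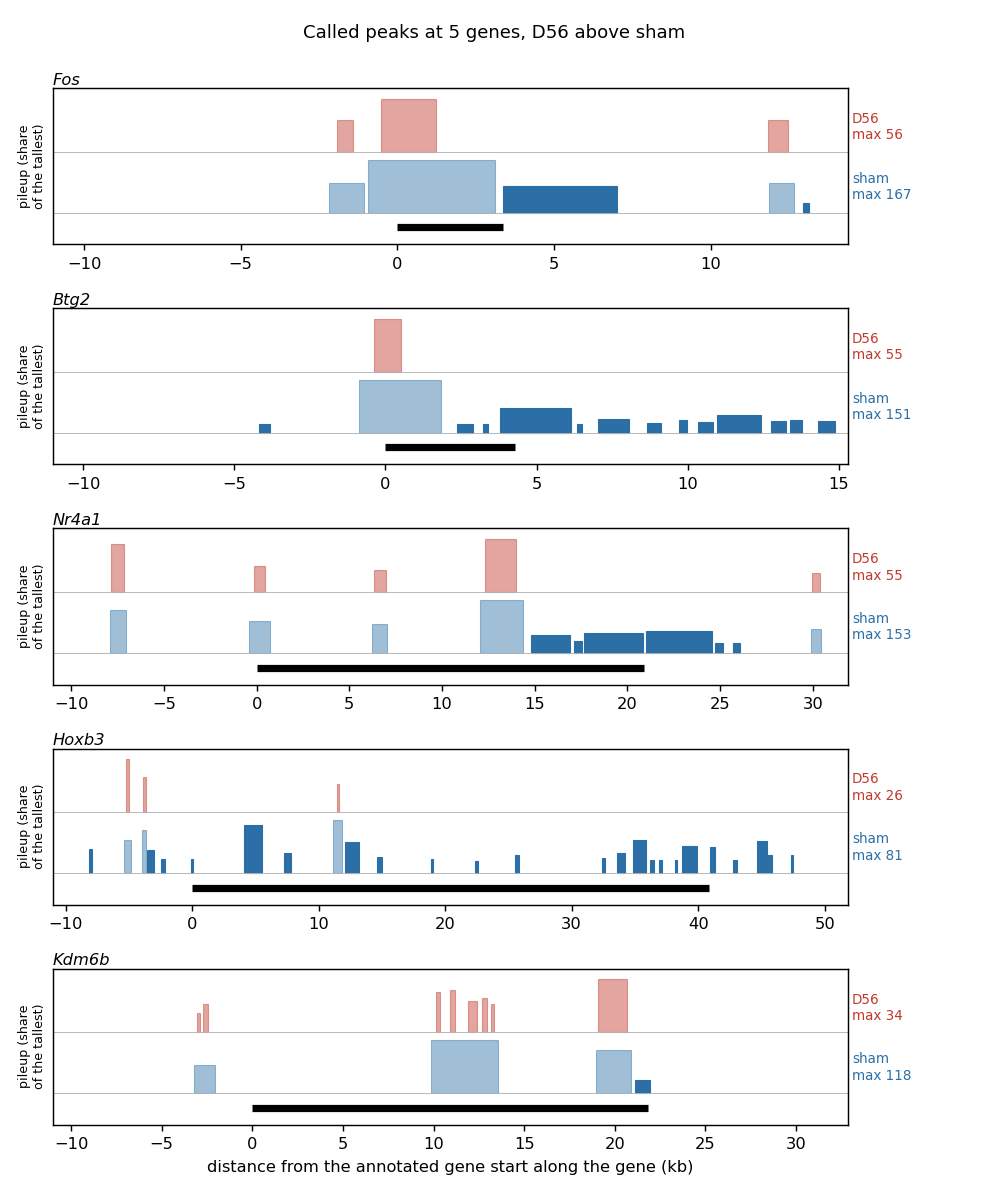
Called peaks at 5 genes by distance from the annotated gene start in the direction of the gene (x axis, kb), D56 in red above sham (full list) in blue; box width is peak length, box height the pileup as a share of the tallest peak in that row, dark boxes have no overlap in the other library, pale boxes have one, and the black bar is the gene body. At Btg2 1 D56 peak stands above 14 sham peaks, and at Kdm6b 5 short D56 peaks stand above 1 long sham peak.

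At Fos the 3 D56 peaks covered 2934 bases and the 5 sham peaks 9814. At Btg2 the single D56 peak, over the start of the gene, covered 877 bases, and the 14 sham peaks ran on past the far end of the gene and covered 11393. At Nr4a1 5 D56 peaks covered 4067 bases and 11 sham peaks 15872. At Hoxb3 3 D56 peaks covered 603 bases and 26 sham peaks 13088. At all 4 genes every D56 peak overlapped a sham peak, and the sham peaks covered more bases. Over the whole lists, 96.4% of D56 peaks overlapped a sham peak, and peaks covered 5.23 Mb at D56 and 10.8 Mb in sham. All 4 genes had been named for an unmatched sham peak, so wider sham coverage there was partly built in.

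To describe gene families and pathways, 79 lists with 4543 distinct genes were used. Within a list, members were named by their pileup, and Mcl1, Nfil3, Rhob, Dusp5, Dusp6, Fos, Fosl2, Atf3, Rora, Per2 and Nfkbiz were named after their values were seen. As a backdrop, 16.1% of all equal-length sham peaks at protein-coding genes had no D56 overlap, and 12.5% of D56 peaks there had no overlap in the equal-length sham list (3.23% had none in the full list). A second backdrop was the number that sham peaks of the same pileup group (of 10) and the same position (at a gene end or not) would give over the whole genome. Neither is a test, and nothing is called particular to a list from them. For counts of members, the shares over all protein-coding genes were 55.5% with a D56 peak, 62.3% with a sham peak and 54.9% with an equal-length sham peak. Top pileups of a gene, given below for both libraries, are each on the scale of their own list. Over all protein-coding genes with a peak, their median was 31 at D56 and 61 in sham. Of 50 lists with at least 30 equal-length sham peaks, 26 lay above 16.1% and 24 below it.

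**Figure D4:**
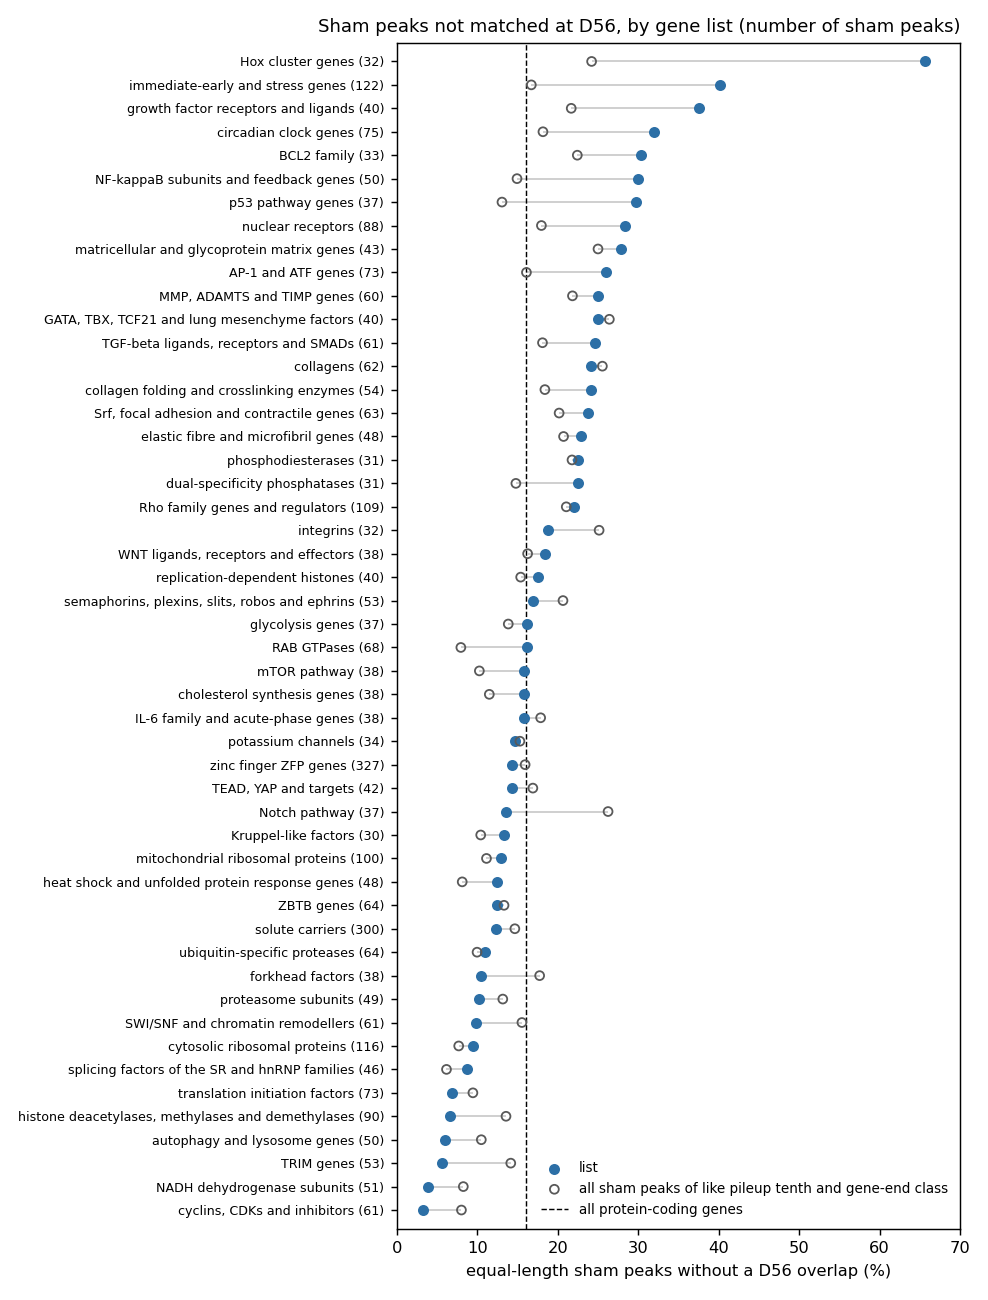
Share of equal-length sham peaks without a D56 overlap (x axis, %) in each gene list with 30 or more such sham peaks (number in parentheses); filled circles are the list, open circles the share over all sham peaks of like pileup group and gene-end class, and the dashed line all protein-coding genes (16.1%). Hox cluster genes (65.6%) and immediate-early and stress genes (40.2%) lie farthest to the right, and cyclins and CDKs (3.28%) farthest to the left.

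Immediate-early and stress genes, which many cells switch on within minutes of a stimulus, had 49 sham peaks with no D56 counterpart. All 35 had a peak in both libraries. Their distinct peaks numbered 90 at D56 and 122 in the equal-length sham list. Without an overlap in the equal-length sham list were 2 of the 90 D56 peaks (2.22%), and without a D56 overlap were 49 of the 122 sham peaks (40.2%), where peaks of like strength and position would give 20.4. Of the 49, 36 were called at D14, a lower share than the 1909 of 1999 such peaks over all protein-coding genes. Fewer peaks at D56 than in equal-length sham were found at 18 genes, more at 6 and equal numbers at 11. Peaks over 2 kb numbered 1 at D56 and 18 in sham. Zfp36, which encodes an mRNA-destabilising protein, had 6 peaks with a top pileup of 55 at D56 and 8 with a top of 197 in sham, 3 of them unmatched. Gadd45b had 3 and 4 peaks, with tops of 56 and 156, and Per1, a clock gene of this list, 4 and 6, with tops of 57 and 150. Nr4a3 had 2 in each, with tops of 64 and 105. Mcl1, a survival gene, had 3 and 7 with 4 unmatched, and Nfil3 had 2 and 5 with 4 unmatched. At other genes of the list the main peak was shared: Rhob had 1 and 1, Dusp5 1 and 1, and Dusp6 3 and 3.

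The AP-1 and ATF genes, whose products often bind beside RUNX proteins, gave a mixed picture by number of peaks but not by bases covered. Their peaks covered 38385 bases at D56 and 90861 in equal-length sham, beside 4560219 and 6941587 over all protein-coding genes. Of 26 genes, 25 had a peak in each full list. Distinct peaks numbered 75 at D56 and 73 in equal-length sham, of which 19 (26.03%; 11.8 at like strength) had no D56 overlap. At 10 of the genes there were more peaks at D56 and at 8 fewer. Jun had 6 D56 peaks and 3 sham peaks, with top pileups of 66 and 147, and Jund 9 and 6, with tops of 60 and 160. The 9 D56 peaks at Jund covered 4215 bases and the 6 sham peaks 10205. Atf7 had 2 and 3, and Bach1 2 and 1. Fos had 3 and 4, and Fosl2 4 and 3. Atf3, a stress-induced member, had 2 and 7, and 27 in the full sham list, of which 26 had no D56 overlap. Peaks over 2 kb numbered 1 and 8.

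Homeobox genes of the Hox clusters, which record position along the body axis in fibroblasts, had fewer D56 than equal-length sham peaks at 17 of 39 genes, more at 0 and equal numbers at 22. Distinct peaks numbered 11 at D56 and 32 in equal-length sham, of which 21 (65.6%; 7.75 at like strength) had no D56 overlap. Of the 21, 19 were called at D14, beside 1909 of 1999 such peaks over all protein-coding genes. Of the 39, 15 had a peak at D56 and 17 in sham. Neighbouring Hox genes lie so close that they share peaks, so these genes are not separate observations. Hoxa5 and Hoxa6 both had 2 D56 and 4 sham peaks with tops of 39 and 121. Hoxa2 had 3 and 7, with tops of 31 and 117. Hoxb2 had 0 and 4 and Hoxa10 0 and 1. No Hoxc or Hoxd gene had a peak in either library.

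The Twist, Snail, Zeb and Prrx factors, mesenchymal regulators often raised in fibrosis, showed peaks at 3 of 11 genes at D56 and 9 of 11 in the full sham list, with no gene having a D56 peak alone. At equal length sham peaks were at 6. Over all protein-coding genes, 55.5% had a D56 peak and 62.3% a sham peak in the full lists. Snai1 had 1 D56 and 1 sham peak (pileups 35 and 100), Snai2 1 and 1 (27 and 43), and Twist2 1 and 3 (14 and 59). Zeb1, Zeb2 and Snai3 had 0 and 1 each, with sham pileups of 32, 38 and 48. These numbers are small.

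Clock genes and nuclear receptors had their unmatched sham peaks chiefly at a few members. For 22 clock genes 57 D56 peaks and 75 equal-length sham peaks were counted, 24 of the sham peaks (32.0%; 13.6 at like strength) without a D56 overlap. Of the 24, Rora held 9, and Per2 (2 D56 and 6 sham peaks) and Nfil3 held 4 each. Nr1d2, which encodes the repressor REV-ERB beta, had 2 and 1, with tops of 67 and 153, and stood at ranks 65 and 62 of the lists. Cry2 had 4 and 5, and Dbp 5 and 5. For 45 nuclear receptor genes the counts were 72 and 88, with 25 of the sham peaks unmatched (28.4%; 15.8 at like strength). Nr4a1 had 5 and 9, Nr1h2 3 and 2, and Vdr, the vitamin D receptor gene, 1 and 0 with pileups of 15 at D56 and 31 in the full sham list. Rora and Nr4a1 stand in more than one list, so these counts are not independent.

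NF-κB subunit and feedback genes had 40 D56 and 50 equal-length sham peaks, 1 of the D56 peaks and 15 of the sham peaks without a partner (7.47 at like strength for sham). Nfkbiz, an inducible regulator, held 5 of the 15, with 1 and 6 peaks. Bcl3 had 7 and 6, with tops of 51 and 167, Birc2 2 and 2, Tnfaip3, the gene of the feedback inhibitor A20, 2 and 2, and Relb 3 and 2. Growth factors and their receptors had 27 and 40 peaks at 17 and 18 of 30 genes, 15 of the sham peaks (37.5%; 8.67 at like strength) unmatched. Fgf2 had 4 and 5, with tops of 70 and 129. Igf2r had 0 and 3, Met 0 and 1, and Pdgfa, a ligand for fibroblasts, 1 and 0 with 2 peaks in the full sham list. In the p53 pathway 11 of 37 sham peaks (29.7%; 4.84 at like strength) were unmatched, of which Btg2 alone held 7.

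Genes of the matrix and of TGF-β signalling lay closer to what strength gives. The 42 collagen genes had 54 D56 and 62 equal-length sham peaks, and 15 sham peaks (24.2%) had no D56 overlap, against 15.8 at like strength. Col1a1 had 3 D56 and 4 sham peaks with tops of 37 and 94, Col1a2 1 and 2 with tops of 43 and 95, Col7a1 2 and 1 with tops of 49 and 91, and Col11a2 1 and 1. Col5a2, Col6a4 and Col17a1 had sham peaks alone at equal length, 1 each with pileups of 45, 39 and 34, and Col18a1 had a D56 peak alone with a pileup of 14 beside 5 weaker-ranked peaks of the full sham list. In the full lists 23 and 31 of the 42 genes had a peak. Matricellular genes had 38 and 43 peaks with 12 sham peaks unmatched, against 10.8 at like strength. Has1, a hyaluronan synthase gene, had 5 and 8 with tops of 55 and 183, and Tnxb 3 and 7 with tops of 46 and 176. Dcn, the decorin gene, had 1 and 0 at equal length, and Ccn5 and Spon2 had sham peaks alone. Elastic fibre genes had 45 and 48 peaks, 11 sham peaks unmatched against 9.95 at like strength.

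The 31 genes of TGF-β ligands, receptors and SMADs had peaks at 28 in each full list and the same 28 genes carried them, since no member had a peak in one library alone. Distinct peaks numbered 58 and 61 at equal length, with 15 sham peaks (24.6%; 11.04 at like strength) unmatched. Ski, a repressor of SMAD signalling, had 3 and 6 with tops of 55 and 143, Tgfbr1, the type I receptor gene, 1 and 1 with tops of 55 and 81, Skil 2 and 2 and Bambi 1 and 1. Tgfb2 had 2 and 0 at equal length and 3 in the full sham list. The contractile and focal adhesion genes had 52 and 63, with 15 unmatched sham peaks against 12.7. Vcl, Zyx and Tpm4 had top pileups of 61, 61 and 58 at D56 and of 120, 116 and 112 in sham. Acta2, the smooth muscle actin gene of myofibroblasts, had 0 and 1 at equal length and 2 in the full sham list, the strongest with a pileup of 32.

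Marker lists of fibroblast subtypes gave small counts whose order changed with list length. The 24 alveolar markers had 29 D56 peaks and 21 equal-length sham peaks. At equal length 17 genes had a D56 peak and 14 a sham peak, but in the full lists the numbers were 17 and 23. Without a partner at equal length were 10 of the 29 D56 peaks (34.5%; 7.70 at like strength) and 3 of the 21 sham peaks. Npnt, Itga8, Wnt2 and Cdh11 had D56 peaks alone at equal length, with pileups of 12 to 18, and each had peaks of pileup 21 to 26 in the full sham list. Mfap4 had 2 and 2 with tops of 42 and 82, Rgcc 1 and 1, and Adh1 0 and 1. The 18 fibrotic markers had peaks at 4 genes at D56 and 9 in the full sham list, 5 at equal length. Of the 4 ranked in both lists, the best peak stood higher at D56 for 3 and in sham for 1. Ltbp2 had 2 and 3, Pmepa1 1 and 2, Col12a1 2 and 2. Cthrc1, Tnc, Spp1, Grem1, Lrrc15 and Fap had 0 in both. Adventitial markers had 18 and 22 peaks, with Ackr3 and Ly6a carrying sham peaks alone.

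Lists of other functions varied. Potassium channel genes had 43 D56 and 34 equal-length sham peaks, 14 and 5 of them unmatched (32.6% and 14.7%; 7.81 and 5.20 at like strength). At 8 genes D56 peaks stood alone at equal length, among them Kcnk5, Kcnk2, Kcna2 and Kcnb2 with pileups of 15 to 21, and all 8 genes had a peak in the full sham list. Replication-dependent histone genes had 45 and 40 peaks, 12 and 7 unmatched (5.52 and 6.16 at like strength). The genes H2ac15, H2bc15 and H4c12 lie side by side, shared 1 D56 peak with a pileup of 14, and had none in sham. Semaphorin, plexin, ephrin and related guidance genes had 59 and 53, with 15 and 9 unmatched. Forkhead genes had 44 and 38, and Foxp2 was their only member with a D56 peak and no sham peak, with a pileup of 16. WNT genes had 42 and 38, and Rspo4, an amplifier of WNT signalling, had a D56 peak alone with a pileup of 15. Genes for cyclins and CDKs had 69 and 61, with 6 and 2 unmatched, histone-modifying enzymes 98 and 90, with 5 and 6, and NADH dehydrogenase subunits 51 and 51, with 1 and 2. RAB GTPase genes, which direct vesicle traffic, had 63 and 68, with 4 and 11 unmatched (3.87 and 5.42 at like strength). Interferon-stimulated genes had 16 and 20, with 2 and 6 unmatched, cholesterol synthesis genes 33 and 38, with 0 and 6, and cytosolic ribosomal protein genes 108 and 116, with 2 and 11.

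Taken by the number of genes with a peak, 3 of the 79 lists had more members at D56 and 64 more in sham when full lists were compared, and 12 were equal. With lists of equal length 34 had more members at D56, 22 more in sham and 23 were equal. The direction of a list's member count thus depended on list length, and the unmatched peaks above are given at equal length for this reason. Counting peaks in place of members, 31 lists had more at D56, 40 more in sham and 8 the same number.

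The genes of the RUNX family themselves had few peaks. Runx1 had 2 D56 peaks and 4 sham peaks (2 at equal length), with top pileups of 39 and 109. Runx2, the bone and cartilage family member, had 1 and 3 (1 at equal length), with tops of 40 and 74. Cbfb, the shared partner, had 1 and 3 (2 at equal length), with tops of 27 and 56. Runx3, known from T cells and neurons, had 0 in both. At D14 these genes had 24, 14, 6 and 4 peaks in the same order as named. Of the partner genes, Tle1 had 2 and 2, Tle4 1 and 1 and Tle3 3 and 4, and Runx1t1 had 0 and 1.

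Fibroblast identity could be read only at the level of sites. Of 12 pan-fibroblast markers, 10 had a peak in each full list, and Lum and Thy1 had none in either. Markers of other lung cells had peaks too. Endothelial genes had a peak at 6 of 15 at D56 and 7 of 15 in sham, myeloid genes at 4 and 5 of 15, lymphocyte genes at 4 and 4 of 11, epithelial genes at 4 and 6 of 17, pericyte genes at 5 and 8 of 11 and mesothelial genes at 0 and 1 of 7. Genes of other organs had them at 4 and 6 of 17. At D56 all these shares lay below that of all protein-coding genes (55.5%). In sham all but that of pericyte genes did (62.3% of all genes). Top pileups over these 7 lists reached 59 at D56 and 147 in sham, both at Cd68. Ptprc, Csf1r, Cd3e, Epcam, Nkx2-1, Kdr and Cldn5, picked from these lists outside the naming rules, had none in either library. Other members of the same lists had the peaks counted above, so these genes do not stand for their lists. A peak within 10 kb can belong to a neighbouring gene, and the part of other cells in the differences was not tested.

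Among peaks called in both libraries, standing within the list was largely kept. Over 12064 shared pairs in the lists of equal length, Spearman's rho of the pileup ranks was 0.821 across peaks of 2 libraries, which are not replicates, and the median shift was 1393 ranks. A shift of 5000 ranks or more was found in 271 pairs that stood higher at D56 and in 379 that stood higher in sham. Of the 271, 61.6% lay within 1 kb of a gene end, and of the 379, 22.4%, beside 57.6% of all shared pairs.

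**Figure D5:**
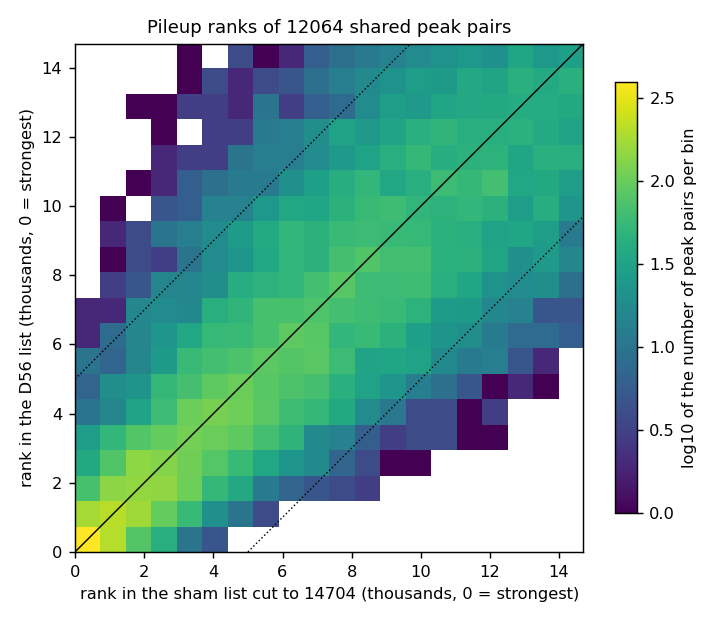
Pileup rank of 12064 shared peak pairs in the D56 list (y axis, in units of 1000 ranks, 0 is the strongest) and in the equal-length sham list (x axis, in the same units); colour gives the log10 of the number of pairs per bin, the solid line equal rank and the dotted lines a difference of 5000 ranks. Pairs crowd along the solid line, and 271 lie beyond the lower dotted line (higher at D56) and 379 beyond the upper one (higher in sham).

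Among shared peaks within 100 kb of a named gene, the largest shifts towards D56 were in or nearest to Myo10, Hdhd2, Pdia4 (56251 bases away), Hmgn3, Efhb, Il12a, Ahr and Wls. The peak nearest Myo10, an unconventional myosin gene, stood at rank 3239 at D56 and 12454 in sham, with folds of 11.7 and 6.69, but lay 32420 bases from the gene. That 88 bases from Ahr, the aryl hydrocarbon receptor gene, stood at 4489 and 12675, with folds of 9.82 and 4.08. Inside Hmgn3, a nucleosome-binding protein gene, ranks were 5371 and 13685, and inside Wls, which carries WNT ligands to the cell surface, 6229 and 14309. For Il12a, a cytokine subunit gene 13650 bases away, they were 3746 and 12002. The ranks rest on different pileups, such as 30 at D56 and 35 in sham at Ahr. The first is above the D56 median of 23. The second is near the median of 36 of the full sham list and low only in its equal-length form, where the median was 51.

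Among the same peaks, the largest shifts towards sham were in or nearest to Slc41a3, Mcoln3, Tmem241, Hoxb4, Sv2b (63812 bases away), Plpbp (1845 bases), A4galt (10789 bases) and Crispld2. Inside Slc41a3, a magnesium transporter gene, the ranks were 12614 at D56 and 1637 in sham, with pileups of 15 and 92 and folds of 4.07 and 10.4. Inside Mcoln3, a lysosomal channel gene, they were 14382 and 3563, with folds of 4.48 and 10.5. Inside Hoxb4 they were 12864 and 2621, and the fold was 5.68 at D56 and 6.84 in sham. Inside Crispld2, a secreted protein gene of the lung mesenchyme, ranks were 13503 and 3840, with folds of 3.97 and 7.16. All 8 were still called at D56, with pileups of 12 to 15.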

How the data were processed

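The deposited files are MACS2 peak lists, 1 per ChIP library. Per the file headers, MACS 2.0.10.20120913 was run with the matched input as control at a q cutoff of 0.01. The same headers give a genome size of 1.87 Gb and local background windows of 1 and 10 kb, and state that of ChIP and input the deeper was scaled down. The submitters' processing notes name BWA, SAMtools, MACS2 and mm10, and the alignment settings were not stated there. The authors deposited for each peak a pileup signal at the summit (scaled fragment coverage) and a fold ratio over local background. The authors also deposited p-values and q-values, both as −log10.

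Peaks on chromosomes 1 to 19 were intersected with an overlap of 1 bp or more. The longer list was also limited to its 14704 highest pileups, with ties in pileup resolved in a fixed order. RefSeq GRCm38.p6 gave 20661 protein-coding genes, and a peak was counted at each gene whose body plus 10 kb it met. Start-site distances and promoter windows came from the RefSeq promoter table, which does not hold chromosome 18. Total tags ranged from 19949187 to 49669125 per library, read from the headers. With 1 library per condition only counts, shares and ranks were computed, with 95% Wilson intervals that cover counting error. The overlap and assignment steps were tested on simulated data. Python 3.11.15, numpy 2.4.6, pandas 2.3.3, scipy 1.17.1, statsmodels 0.14.6 and matplotlib 3.10.9 were used.

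The named genes are the nearest protein-coding genes within 100 kb of the 15 unmatched peaks with the highest pileup in each list, of the 5 strongest shared peaks of each list, and of the 8 shared peaks with the largest rank difference each way. They also include the 6 genes with the largest difference in peak number each way, and in each gene list up to 4 members with the highest pileup per class (peaks at D56 alone, in sham alone, in both) or all of a class of 5 or fewer. Unnamed gene models were passed over, as were peaks with no named gene within 100 kb. A few genes that meet these rules are not reported here. The members and gene lists were chosen with earlier results of these data known. Alternatives covered the overlap rule, the q-value cutoff, merging of close peaks, the ranking column, the gene window and the list length.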

Additional observations from a re-analysis of the deposited data

Results flagged for a closer look

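Peaks outside chromosomes 1 to 19 were not used in the comparison. On the X chromosome the D56 list held 305 peaks, of which 14 (4.59%) overlapped no sham peak, and the sham list held 441 peaks, of which 160 (36.3%) overlapped no D56 peak. On the mitochondrial genome the D56 list held 0 peaks and the sham list 7, with pileups of 2125 to 3705 and folds of only 1.13 to 1.34 over local background. These sets were singled out because they are signal in data outside the comparison, and there is no control list to set them against.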

How the results depend on the processing

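Of 46 alternative values for the overlaps, gene counts, gene-end shares and rank shifts, 30 stayed within the limit set for a like value and 16 moved. With a reciprocal overlap of 50%, unmatched peaks numbered 3869 at D56 against the full sham list and 5101 in each list at equal length. With summits within 200 bp, 1369 D56 peaks were unmatched. Ranking by fold enrichment for the equal-length lists left 3337 D56 peaks unmatched. With both lists limited to 5000 peaks, 899 D56 and 954 sham peaks were unmatched. Genes with a D56 peak alone numbered 278 by the nearest gene end and 622 with equal-length lists, and genes with a sham peak alone 495 with equal-length lists. Within 2.5 kb of a gene end lay 60.1% of D56 and 46.1% of sham peaks. Alternatives chosen after seeing the data gave 1 unmatched D56 and 32 unmatched sham peaks among the 5000 strongest of each list, and 1458 (ranking by −log10 p) and 2605 (ranking by fold) rank shifts of 5000 or more, against 650 by pileup. The causes were not tested beyond what each rule builds in. Of the member counts of the gene lists, 116 moved and 42 did not with 5000 peaks a list, 11 and 147 with a 2.5 kb window, and 7 and 151 at equal length. No paired analysis was possible because each condition had 1 library. The depth of the D56 input and the absence of replicates limit what an absent peak can mean.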
